A study of Homo sapiens with 14 samples.

Results

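Clone 3 is a human prostate cancer cell line grown from a single cell of the line PC3-ML, and its gene expression was compared with that of PC3-ML itself. PC3-ML is a subline of PC3, a line established from a bone metastasis of a prostate carcinoma. The comparison takes the 2 arrays titled for Clone 3 and the 2 titled for PC3-ML, 4 of the 14 arrays of a series of 7 lines, over all 18372 genes that a probe set with a single gene symbol represented. The labels call both lines bone metastatic, and neither carries a transgene or a treatment that the labels name. A second line grown from a single PC3-ML cell, Clone 1, also labelled bone metastatic, has 2 arrays that are given beside them. The remaining lines are PC3-N and DU-145, and a version of each with PDGFRα in its title. Of the 7 lines 5 are of PC3 background and 2 of DU-145 background, and all 14 arrays enter the fit. The culture medium of every line was DMEM, to which gentamicin and fetal bovine serum were added, per the labels' protocols. Total RNA was taken on a column and its biotin-labelled copy was hybridised to 1-colour arrays.

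Each line has 2 arrays from different passages, so the p values below rest on how far 2 passages of a line differ. Clone 3 is 1 clone. A difference from PC3-ML that arose by cloning, in later culture or in handling cannot be told apart, and Clone 1 is the only other line made the same way from PC3-ML. The level of a gene is its RMA intensity as deposited by the authors, a summary of its probes after background subtraction and normalisation between arrays. Intensities ran from 18.5 to 8654. Values in the 20s lie at the floor of the scale, where differences are compressed, so a fold change against such a level is a low estimate.

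Genes of simple epithelia were measured above that floor, with KRT18 near it in 1 of the 2 PC3-ML arrays. KRT18, a keratin, read 142 and 129 in Clone 3, against 36.3 and 80.8 in PC3-ML, and was not called (log2 difference 1.32, limma adjusted p = 0.0987). Its partner KRT8 read 227 and 253 in Clone 3, against 207 and 220 in PC3-ML. EPCAM, an epithelial adhesion molecule, read 434 and 473 in Clone 3, against 450 and 484 in PC3-ML. CTNNA1, the alpha-catenin gene that PC3 cells are known to have lost, was at the floor in all 4 arrays (22.3 to 24.4). KLK3, the prostate-specific antigen gene, lay between 25.3 and 26.8 in the 4 arrays, and CDH1, the E-cadherin gene, between 25.0 and 32.4. Of the 8 leukocyte and endothelial markers measured, 0 were called by limma and 1 had an unadjusted p under 0.05. Their intensities summed to 277 to 291 in Clone 3 and 256 to 281 in PC3-ML, and PTPRC, the pan-leukocyte antigen gene, was at the floor in all 4 arrays (19.7 to 20.1).

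Several gene families run through the results, and their known roles are background here. Clade B serpins are serine and cysteine protease inhibitors that mostly act inside cells or at epithelial surfaces, and their genes lie largely in a cluster on chromosome 18. Lipocalin 2, elafin and the secretory leukocyte protease inhibitor are antibacterial or antiprotease proteins that epithelia secrete, and interleukin-1 through the factor NF-kB is a classical inducer of such genes. Plastins cross-link actin filaments, and L-plastin, normally a leukocyte protein, is often found in carcinoma lines.

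The 2 Clone 3 arrays correlated with each other at r = 0.9951 across genes and the 2 PC3-ML arrays at 0.9942, while Clone 3 and PC3-ML arrays correlated at 0.9782 to 0.9852 (genes are not independent of each other). PC3-ML replicate 2 was the closer of the parental arrays to Clone 3. Limma called 1489 of 18372 genes (8.1%) at a Benjamini-Hochberg adjusted p under 0.05. Of these 956 were higher in Clone 3 (5.2% of all genes) and 533 were lower (2.9%). At least 2-fold differences made up 115 of the calls (0.626% of all genes), 61 higher (0.332%) and 54 lower (0.294%). The arrays of the lines did not overlap for 51.4% of all genes, so that criterion alone says little with 2 arrays a line. The excess of higher over lower calls depended on the scaling: 735 were higher and 663 lower after a second quantile normalisation, and 1201 were higher and 433 lower with each array centred on its median. The plot of difference against level shows that the called genes span the range of intensities and that a few genes stand far from the rest.

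**Figure D1:**
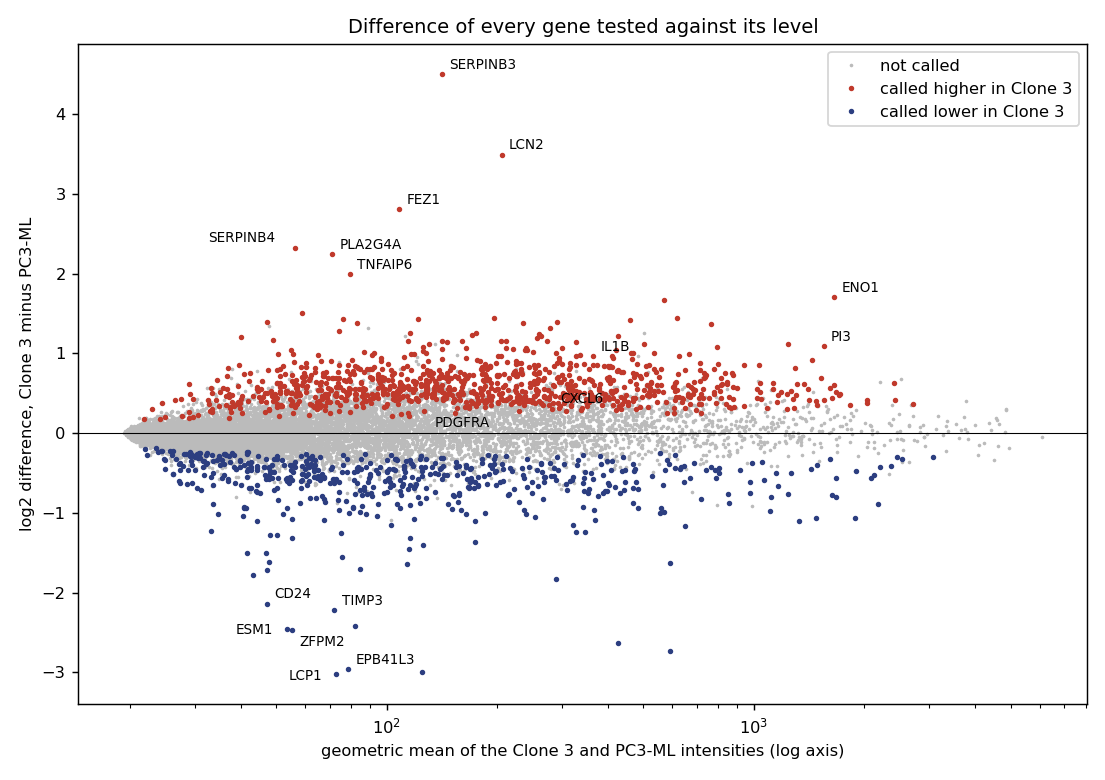
Each point is 1 of the 18372 genes, with the geometric mean of its mean intensities in Clone 3 and PC3-ML on a log axis and the log2 difference, Clone 3 minus PC3-ML, on the vertical axis; red and blue points are the 956 genes called higher and the 533 called lower. SERPINB3 (4.50), LCN2 (3.49) and FEZ1 (2.81) are the highest points and LCP1 (−3.02) the lowest, while PDGFRA lies at 0.01; small RNA genes are plotted without names.

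The largest rise was in SERPINB3, the squamous cell carcinoma antigen gene of the clade B serpins. It read 643 and 705 in the Clone 3 arrays, against 28.1 and 31.4 in the PC3-ML arrays. Clone 3 was thus far above its parent, where the gene lay near the floor, and the difference was 4.50 on the log2 scale, or 22.7-fold (SE 0.11, limma adjusted p = 5.6e-08). SERPINB4, its near-identical neighbour and a fellow squamous antigen, read 99.0 and 154 in Clone 3, against 28.1 and 21.7 in PC3-ML (log2 difference 2.32, SE 0.18, limma adjusted p = 0.00014). All 12 arrays of the series that are not of Clone 3 lay below the Clone 3 arrays for both genes. Such a value is a mean over the culture, in which more cells with the transcript and more transcript per cell cannot be told apart. Whether the SERPINB4 probe set also reads SERPINB3 transcripts was not tested.

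The likeness of the 2 genes extends to the sequence before their start sites, which is shown because they are the pair of serpins with the largest rises. The RefSeq windows (GRCh38.p14, minus strand of chromosome 18) hold 250 bases before and 50 after the start, and 296 of their 300 bases are identical (98.7%). Capitals mark the positions that differ, which from SERPINB3 to SERPINB4, counted from the 5′ end of the window, are G126A, G201A, C228T and T260C. The windows span chr18:63661844-63662143 for SERPINB3 and chr18:63644207-63644506 for SERPINB4.
SERPINB3: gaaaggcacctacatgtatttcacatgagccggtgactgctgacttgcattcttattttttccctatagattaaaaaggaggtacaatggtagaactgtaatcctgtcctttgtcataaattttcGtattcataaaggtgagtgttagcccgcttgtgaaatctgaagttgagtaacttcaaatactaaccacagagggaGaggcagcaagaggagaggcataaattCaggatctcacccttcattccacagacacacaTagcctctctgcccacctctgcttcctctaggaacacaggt
SERPINB4: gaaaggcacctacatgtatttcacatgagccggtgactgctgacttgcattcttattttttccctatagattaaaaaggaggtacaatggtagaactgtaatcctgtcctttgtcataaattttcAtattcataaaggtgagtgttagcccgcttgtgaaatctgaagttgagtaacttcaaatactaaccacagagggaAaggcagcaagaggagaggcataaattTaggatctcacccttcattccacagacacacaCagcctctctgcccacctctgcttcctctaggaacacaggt
Neither window holds the NF-kB consensus, TGANTCA or TATAAA on either strand, which says only that these letters are absent from these 300 bases.

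Other clade B serpins rose by less. SERPINB5, the maspin gene, read 172 and 162 in Clone 3, against 87.2 and 80.7 in PC3-ML (log2 difference 0.99, SE 0.12, limma adjusted p = 0.0018). SERPINB8 read 236 and 191 in Clone 3, against 127 and 132 in PC3-ML (0.71, limma adjusted p = 0.017). In both the Clone 3 arrays lay above the PC3-ML arrays, and SERPINB8 lost its call without any 1 of 3 of the 4 arrays, both PC3-ML arrays and Clone 3 replicate 1 (adjusted p up to 0.12). In all 4 of the 11 measured clade B serpins were called higher and 0 lower, with a median log2 difference of 0.34, against −0.01 for all genes. This and the list counts below are to be read against the 5.2% of all genes called higher and the 2.9% called lower. SERPINB7 was abundant in both lines, at 525 and 661 in Clone 3 and 495 and 438 in PC3-ML, and was not called (0.34, adjusted p = 0.15). SERPINB1 (0.68, adjusted p = 0.15) was not called either, and SERPINB9, SERPINB10, SERPINB11, SERPINB12 and SERPINB13 averaged 20.1 to 22.0 in Clone 3 and 20.2 to 21.3 in PC3-ML, at the floor.

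LCN2, which encodes lipocalin 2, a secreted binder of the iron carriers of bacteria, was the next largest rise. It read 724 and 654 in Clone 3, against 56.3 and 66.5 in PC3-ML. The log2 difference was 3.49, or 11.2-fold (SE 0.21, limma adjusted p = 3.0e-05). The genes of 2 antiproteases of epithelial secretions rose with it, each with its Clone 3 arrays above its PC3-ML arrays. SLPI, the secretory leukocyte protease inhibitor gene, read 246 and 296 in Clone 3, against 108 and 118 in PC3-ML (1.26, limma adjusted p = 0.0013). PI3, the elafin gene, read 2261 and 2260 in Clone 3, against 1070 and 1058 in PC3-ML (1.09, limma adjusted p = 0.012). PI3 lost its call without PC3-ML replicate 1 and without either Clone 3 array (adjusted p up to 0.082). These 3 were the called members of the 21 secreted epithelial defence genes, with 0 lower and a list median of 0.00. The trefoil peptide gene TFF1 read 763 and 588 in Clone 3, against 306 and 383 in PC3-ML, and was not called (0.97, adjusted p = 0.11), and 14 other members averaged under 35 in both lines.

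Among 24 measured cytokines and targets of interleukin-1 and NF-kB, 5 were called higher and 1 lower (5.2% and 2.9% of all genes). IL1B, the interleukin-1 beta gene, read 561 and 461 in Clone 3, against 264 and 258 in PC3-ML (log2 difference 0.96, SE 0.14, limma adjusted p = 0.003). SOD2, the mitochondrial superoxide dismutase gene that NF-kB induces, read 382 and 238 in Clone 3, against 134 and 138 in PC3-ML (1.15, limma adjusted p = 0.0075). CXCL6, a chemokine that attracts neutrophils, read 375 and 323 in Clone 3, against 250 and 210 in PC3-ML (0.60, limma adjusted p = 0.013). The Clone 3 arrays lay above the PC3-ML arrays in all 3, although the 2 SOD2 values of Clone 3 were well apart. NFKB1, a subunit gene of NF-kB itself (0.53), and the adhesion molecule gene ICAM1 (0.47) were also higher, while the chemokine gene CCL2 was lower (−0.42) between levels near the floor. The chemokine genes CXCL1 (0.47, adjusted p = 0.14) and CXCL8 (−0.66, adjusted p = 0.2) and the inhibitor gene NFKBIA (−0.06, adjusted p = 0.89) were not called. The list median was 0.00. In Clone 1 against PC3-ML, 5 of the 24 were called higher and 2 lower (9.01% and 4.77% of all genes). Between the clones 1 was higher and 2 lower in Clone 3 (4.63% and 5.85% of all genes). SOD2 was higher in Clone 1 than in PC3-ML by 1.05, and was not called between the clones (0.10). In Clone 3 against PC3-ML, IL1B kept its call without any 1 array. CXCL6, SOD2, NFKB1, ICAM1 and CCL2 each lost theirs without at least 1 (adjusted p up to 0.31), and NFKB1 and CCL2 also lost it with a replicate block.

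The NF-kB consensus stood in 6.99% of the promoters of called higher genes (57 of 816 with a RefSeq window) and in 7.11% of those of called lower genes (30 of 422), against 6.44% of all 14205. The windows of LCN2 and CXCL6 are shown because both genes rose and both hold it. They are RefSeq windows of GRCh38.p14 on the plus strand, chr9:128149203-128149502 for LCN2 and chr4:73836428-73836727 for CXCL6, and capitals mark the NF-kB consensus and, in LCN2, a TGANTCA.
LCN2: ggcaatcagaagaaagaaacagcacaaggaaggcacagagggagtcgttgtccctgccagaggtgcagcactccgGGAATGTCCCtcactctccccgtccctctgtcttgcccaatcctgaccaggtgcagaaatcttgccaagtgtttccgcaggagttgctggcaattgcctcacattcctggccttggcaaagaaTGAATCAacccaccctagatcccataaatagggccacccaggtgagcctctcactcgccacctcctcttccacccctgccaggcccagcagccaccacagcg
CXCL6: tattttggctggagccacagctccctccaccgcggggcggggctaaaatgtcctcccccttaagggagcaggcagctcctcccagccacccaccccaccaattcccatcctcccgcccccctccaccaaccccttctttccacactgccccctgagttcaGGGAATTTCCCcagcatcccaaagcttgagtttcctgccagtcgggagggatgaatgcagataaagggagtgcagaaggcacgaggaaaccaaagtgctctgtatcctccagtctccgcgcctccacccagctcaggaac
The CXCL6 consensus reads on both strands at overlapping positions. TGANTCA, the core of sites for the factor AP-1 with an open middle base, stood in 2.57% of called higher, 5.69% of called lower and 5.59% of all promoters on either strand. TATAAA stood in 5.02% of called higher, 9.24% of called lower and 8.96% of all. Among the 47 promoters of genes at least 2-fold higher, the NF-kB consensus stood in 4.26% (2 promoters), below the 6.44% of all. In the same 47 promoters the shares of TGANTCA, 6.38% (3 promoters), and of TATAAA, 10.6% (5 promoters), were above those of all. A match describes letters and shows no binding.

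Other genes among the 15 largest rises came from several functions. FEZ1, a kinesin adaptor gene best known from neurons, read 284 and 286 in Clone 3, against 35.6 and 46.4 in PC3-ML (log2 difference 2.81, SE 0.11, limma adjusted p = 2.4e-06). PLA2G4A, the cytosolic phospholipase A2 gene that releases arachidonic acid, read 152 and 157 in Clone 3, against 32.3 and 33.0 in PC3-ML (2.24, SE 0.14, limma adjusted p = 3.2e-05). TNFAIP6, a hyaluronan-binding protein gene that inflammatory cytokines induce, read 163 and 153 in Clone 3, against 43.9 and 36.1 in PC3-ML (1.99, SE 0.10, limma adjusted p = 8.3e-06). All 3 were dim in the parent and clearly expressed in both Clone 3 arrays.

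SERPINE2, a secreted inhibitor of thrombin and plasminogen activators, read 1046 and 974 in Clone 3, against 288 and 350 in PC3-ML (log2 difference 1.67, limma adjusted p = 0.0042). NRP1, a co-receptor for semaphorins and vascular endothelial growth factor, read 745 and 744 in Clone 3, against 238 and 329 in PC3-ML (1.41, limma adjusted p = 0.0037). EHF, an ETS factor of epithelia, read 79.2 and 73.8 in Clone 3, against 29.2 and 29.0 in PC3-ML (1.39, limma adjusted p = 3.0e-05). None of these overlapped between the lines. FER1L6 (1.51), CABLES1, a cyclin-dependent kinase adaptor (1.43), and RBP4, the retinol-binding protein gene (1.43), completed this group.

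The other 3 of the 15 were called higher in both clones than in PC3-ML, as were NRP1 and EHF. ENO1, the glycolytic enolase gene, read 3080 and 2671 in Clone 3, against 599 and 1302 in PC3-ML (log2 difference 1.70, limma adjusted p = 0.0061). LMAN2, a lectin of the secretory pathway, read 350 and 294 in Clone 3, against 96.4 and 144 in PC3-ML (1.45, limma adjusted p = 0.0014). P4HB, the protein disulfide isomerase gene, read 920 and 1111 in Clone 3, against 336 and 413 in PC3-ML (1.44, limma adjusted p = 0.0029), and its second probe set gave 0.67 (adjusted p = 0.023). In ENO1 the 2 PC3-ML arrays differed from each other by more than 2-fold, and the call was lost without Clone 3 replicate 1 (adjusted p = 0.05) and when only the 2 lines were fitted. The other 14 of the 15 rises kept their call without any 1 array.

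**Figure D2:**
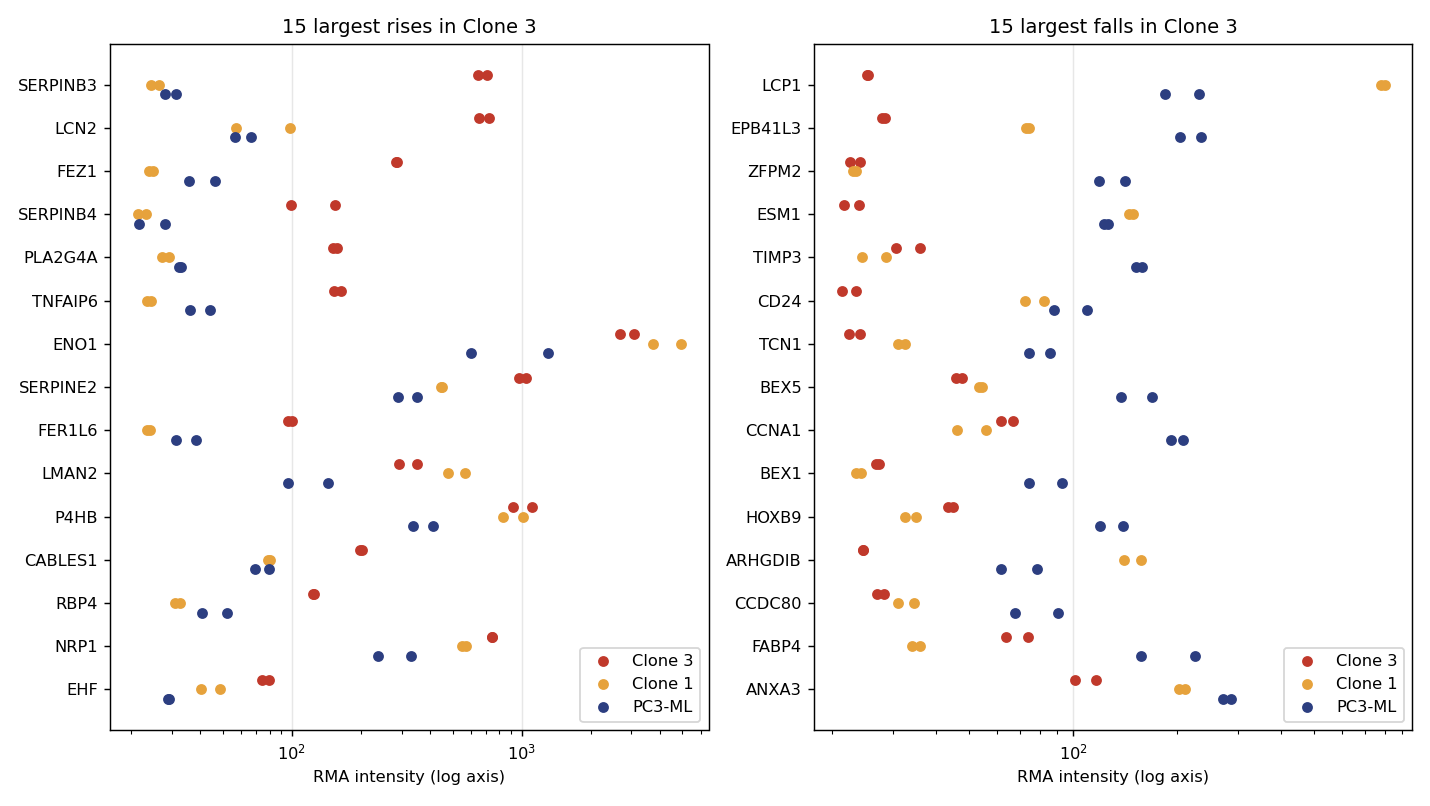
Each row is a gene, with the RMA intensity of the 2 arrays of Clone 3 (red), Clone 1 (orange) and PC3-ML (blue) on a log axis; the left panel holds the 15 largest rises in Clone 3 and the right panel the 15 largest falls. Clone 3 stands apart from both other lines for genes such as SERPINB3, LCN2 and FEZ1, while Clone 1 lies beside Clone 3 for ZFPM2, TIMP3, BEX1 and HOXB9 and above it for ENO1 and LMAN2.

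The largest fall among the genes named was in LCP1, which encodes L-plastin, an actin-bundling protein. It read 25.5 and 25.3 in Clone 3, the floor of the scale, against 231 and 185 in PC3-ML. The log2 difference was −3.02, or 8.13-fold lower (SE 0.13, limma adjusted p = 2.6e-06), a low estimate. EPB41L3, a protein of the membrane skeleton, read 27.9 and 28.5 in Clone 3, against 204 and 235 in PC3-ML (−2.96, SE 0.13, limma adjusted p = 2.6e-06). ESM1, a secreted proteoglycan that endothelial cells make, read 21.6 and 24.0 in Clone 3, against 126 and 123 in PC3-ML (−2.45, SE 0.13, limma adjusted p = 1.1e-05). CD24, a mucin-like surface glycoprotein gene, read 23.4 and 21.3 in Clone 3, against 88.3 and 110 in PC3-ML (−2.14, SE 0.24, limma adjusted p = 0.0011). All 4 were near the floor in both Clone 3 arrays and present in both parental arrays.

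Other falls were of genes of transcription, matrix and transport. ZFPM2, a cofactor of GATA factors, read 22.6 and 24.2 in Clone 3, against 119 and 142 in PC3-ML (log2 difference −2.47, SE 0.10, limma adjusted p = 2.4e-06). TIMP3, an inhibitor of metalloproteinases, read 36.0 and 30.8 in Clone 3, against 158 and 153 in PC3-ML (−2.22, SE 0.09, limma adjusted p = 2.4e-06), and its second probe set gave −0.53 (adjusted p = 0.0046). HOXB9, a homeobox gene, read 43.3 and 44.8 in Clone 3, against 139 and 120 in PC3-ML (−1.55, limma adjusted p = 9.0e-05). The groups did not overlap in any of them. CCNA1, the cyclin A1 gene (−1.64), ARHGDIB (−1.51), FABP4, the fatty acid binding protein of adipocytes (−1.45), and the annexin gene ANXA3 (−1.36) fell as well. TCN1, a vitamin B12 binder, fell by 1.78 and lost its call without Clone 3 replicate 1 (adjusted p = 0.054). BEX5 fell by 1.71, BEX1 by 1.62 and CCDC80 by 1.50, and all of the 15 falls other than TCN1 kept their call without any 1 array.

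Some of these genes were also low in PC3-N, the PC3 subline labelled as not bone metastatic. ESM1 read 21.7 and 29.4 there, ZFPM2 36.3 and 31.6, TIMP3 45.8 and 46.8, EPB41L3 46.5 and 62.7 and HOXB9 45.6 and 54.6. Both Clone 3 arrays lay below both PC3-N arrays for ZFPM2, TIMP3, EPB41L3 and HOXB9, and the lines overlapped for ESM1. CD24 went the other way among the lines, since it read 230 and 138 in PC3-N, above PC3-ML. LCP1 read 117 and 127 in PC3-N, between Clone 3 and PC3-ML.

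Clone 1 was set beside Clone 3 to ask which differences one single-cell line has that another from the same parent lacks, and limma compared the 2 clones directly. It called 1925 genes between them (10.5%), 850 higher in Clone 3 (4.63%) and 1075 lower (5.85%). At least 2-fold differences were 175 of them (0.953%), 87 higher (0.474%) and 88 lower (0.479%). Of the 15 largest rises of Clone 3, 12 had both Clone 3 arrays above all 12 other arrays of the series, the exceptions being ENO1, LMAN2 and P4HB. Against Clone 1, 11 of the 15 rises were called in the same direction, and of the 4 exceptions NRP1, ENO1 and P4HB were not called and LMAN2 was lower in Clone 3 (−0.70, adjusted p = 0.027). Of the 15 largest falls, 4 had both Clone 3 arrays below all 12 others and 6 were called lower than in Clone 1. Against only the 8 other arrays of PC3 background, 8 of the 15 falls and 12 of the 15 rises lay beyond. LCP1 was also at the floor in the arrays of DU-145 background (22.9 to 29.8). The set tested against Clone 1 was chosen on the comparison with PC3-ML, and both use the Clone 3 arrays.

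The rises that set Clone 3 apart from Clone 1 were those of SERPINB3 (log2 difference 4.73, limma adjusted p = 3.5e-08), FEZ1 (3.55, adjusted p = 2.2e-07) and LCN2 (3.20, adjusted p = 3.1e-05). LCN2 read 724 and 654 in Clone 3, against 57.0 and 98.2 in Clone 1, which lay beside PC3-ML. ZNF667-AS1, an antisense RNA gene, read 202 and 154 in Clone 3, against 22.2 and 26.0 in Clone 1 (2.88, adjusted p = 4.7e-05). TFF1 read 763 and 588 in Clone 3, against 79.4 and 109 in Clone 1 (2.85, adjusted p = 0.00059). Both gaps were in large part falls of Clone 1. ZNF667-AS1 read 68.2 and 109 in PC3-ML, from which Clone 1 differed by −1.85. In PC3-N it read 221 and 207, above Clone 3. TFF1 was not called in Clone 3 against PC3-ML. The serpins SERPINB5 (0.65, adjusted p = 0.0084) and SERPINB7 (1.30, adjusted p = 0.00025) were also higher in Clone 3 than in Clone 1. Against PC3-ML, SERPINB7 differed by 0.34 in Clone 3, which was not called, and by −0.96 in Clone 1.

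The genes lower in Clone 3 than in Clone 1 were led by LCP1 (log2 difference −4.96, limma adjusted p = 6.5e-08). It read 25.5 and 25.3 in Clone 3, against 804 and 782 in Clone 1. PC3-ML, at 231 and 185, lay between its progeny. IL13RA2, the decoy receptor gene of interleukin-13, read 39.5 and 37.0 in Clone 3, against 333 and 267 in Clone 1 (−2.96, adjusted p = 3.5e-05). PODXL, a sialomucin gene, read 62.5 and 60.5 in Clone 3, against 358 and 444 in Clone 1 (−2.70, adjusted p = 4.7e-05). ESM1 read 21.6 and 24.0 in Clone 3, against 149 and 146 in Clone 1 (−2.69, adjusted p = 4.0e-06), and ARHGDIB 24.6 and 24.5 in Clone 3, against 157 and 141 in Clone 1 (−2.60, adjusted p = 3.0e-06). Each of the 5 was several-fold apart with no overlap. PC3-ML also lay between the clones for IL13RA2 (90.8 and 59.5) and PODXL (140 and 110). Against PC3-ML, IL13RA2 differed by −0.94 in Clone 3 and 2.02 in Clone 1, and PODXL by −1.01 and 1.68. Most of both gaps was thus a rise in Clone 1. ARHGDIB differed by −1.51 in Clone 3 and 1.09 in Clone 1.

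Falls that Clone 1 had as well include ZFPM2, TIMP3, BEX1, BEX5, HOXB9, CCNA1, CCDC80 and TCN1, none of which was called between the clones. EPB41L3 was also lower in Clone 1 than in PC3-ML (−1.57), and lower still in Clone 3 (−1.39 against Clone 1). ZFPM2 read 22.6 and 24.2 in Clone 3 and 23.4 and 23.1 in Clone 1, so that both clones were at the floor. FABP4 read 63.9 and 74.2 in Clone 3, against 36.0 and 34.2 in Clone 1, and was higher in Clone 3 (0.97, adjusted p = 0.0031) while both clones were below PC3-ML (226 and 157). Against PC3-ML, Clone 1 differed in 2533 genes (13.8%), 1656 higher (9.01%) and 877 lower (4.77%), and 230 of these were at least 2-fold (1.25%), 144 higher (0.784%) and 86 lower (0.468%). The comparisons of both clones with PC3-ML share its 2 arrays, so a deviation of those arrays enters both.

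PDGFRA, the receptor gene that other lines of the series overexpress, read 130 and 126 in Clone 3, against 104 and 156 in PC3-ML, with overlapping arrays (log2 difference 0.01, limma adjusted p = 0.99). Clone 1 read 31.0 and 26.5, and Clone 3 was higher than Clone 1 by 2.16 on the log2 scale (limma adjusted p = 0.00014). Of the 7 PDGF ligand and receptor genes measured, limma called 0 in Clone 3 against PC3-ML and 1 had an unadjusted p under 0.05. RGS4, a brake on G-protein signalling, lay near the floor at 29.6 and 27.9 in Clone 3 and 32.2 and 32.0 in PC3-ML (−0.16, adjusted p = 0.71). RGS10 was the called member of the 13 RGS genes, lower by a log2 difference of −0.42, and lost its call without PC3-ML replicate 1 and without either Clone 3 array (adjusted p up to 0.13).

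Of 13 measured genes of vascular growth factor signalling, 4 were called lower (ESM1, VEGFC, NRP2 and ANGPT1) and 1 higher (NRP1). Of all genes 2.9% were called lower and 5.2% higher. VEGFC, a lymphangiogenic ligand gene, read 216 and 227 in Clone 3, against 327 and 321 in PC3-ML (log2 difference −0.55, limma adjusted p = 0.0066). NRP2, the paralogue of NRP1, read 26.5 and 27.9 in Clone 3, against 35.7 and 37.4 in PC3-ML (−0.43, limma adjusted p = 0.012), and its second probe set gave −0.49 (adjusted p = 0.011). The neuropilin genes thus differed in opposite directions. ANGPT1, the angiopoietin 1 gene, was lower by −0.32. KDR, the main receptor of vascular endothelial growth factor, read 50.9 and 56.2 in Clone 3, against 85.5 and 114 in PC3-ML, and missed the threshold (−0.88, adjusted p = 0.057). VEGFC, NRP2 and ANGPT1 each lost their call without at least 1 array (adjusted p up to 0.16), and ESM1 and NRP1 kept it.

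Of the integrin, mesenchymal and matrix protease lists, each had called members. The integrin subunit genes ITGAV (log2 difference 0.65) and ITGB5 (0.38), which encode partners in a vitronectin receptor, were higher, 2 of 12 integrins with 0 lower. FN1, the fibronectin gene, read 452 and 485 in Clone 3, against 153 and 209 in PC3-ML (1.39, limma adjusted p = 0.0076), and was the called member of the 14 mesenchymal genes. VIM, CDH2 and S100A4 (0.26, 0.32 and −0.75) were not called (adjusted p of 0.26, 0.22 and 0.063). Both clones had more TIMP1 than PC3-ML, with a log2 difference of 1.55 in Clone 1. In Clone 3 it read 439 and 436, against 155 and 199 in PC3-ML (1.32, limma adjusted p = 0.0047), opposite to TIMP3. With SERPINE2 this made 2 higher and 1 lower of 16 matrix protease and plasminogen genes, while PLAU (−0.27, adjusted p = 0.51) and PLAT (−0.27, adjusted p = 0.47), which encode the plasminogen activators, were not called. FN1 and TIMP1 lost their calls without PC3-ML replicate 1 (adjusted p of 0.077 and 0.051), and ITGAV and ITGB5 without that array or Clone 3 replicate 1 (up to 0.097).

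The epithelial and squamous lists had calls in both directions. DSP, the desmoplakin gene, read 191 and 217 in Clone 3, against 94.5 and 101 in PC3-ML (log2 difference 1.06, limma adjusted p = 0.00049). It was also higher in Clone 1 than in PC3-ML (1.32). DSC3, the desmocollin 3 gene of basal and squamous epithelia, read 412 and 387 in Clone 3, against 163 and 176 in PC3-ML (1.24, limma adjusted p = 0.0085). S100A2, a calcium-binding protein of basal cells, was lower, at 986 and 910 in Clone 3, against 1592 and 1633 in PC3-ML (−0.77, limma adjusted p = 0.00085). Each list had 1 member called in each direction, of 19 epithelial and 17 squamous and basal genes, which is near the share of all genes called. DSC3 lost its call without PC3-ML replicate 1 or Clone 3 replicate 1 (adjusted p up to 0.073), and DSP and S100A2 kept theirs. IFI44L, the called member of 21 interferon-stimulated genes, read 64.2 and 58.0 in Clone 3, against 25.7 and 27.2 in PC3-ML (1.21, limma adjusted p = 9.0e-05), while OAS1, IFIT2 and ISG15 had differences of 0.28, −0.01 and −0.16 (adjusted p of 0.68, 0.99 and 0.6).

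Growth factor output genes differed in both directions. Of 16 measured, PHLDA1 (log2 difference 0.86), the kinase gene PLK2 (0.55), the phosphatase gene DUSP6 (0.50) and MYC (0.50) were higher, and the immediate early gene JUN (−0.58) and the ETS factor gene ETV5 (−0.33) lower. MYC read 503 and 414 in Clone 3, against 313 and 332 in PC3-ML. PHLDA1 read 1025 and 1131 in Clone 3, against 571 and 614 in PC3-ML, and of the 6 it alone kept its call without any 1 array (adjusted p up to 0.22 for the others). INHBA, the inhibin beta A gene, read 212 and 189 in Clone 3, against 361 and 350 in PC3-ML (−0.83, limma adjusted p = 0.00085), and with the matricellular gene CCN1 (−0.62) it made 2 of 13 TGF-beta genes lower and 0 higher. CCN1 lost its call without PC3-ML replicate 1 and without either Clone 3 array (adjusted p up to 0.15). The interleukin receptor genes IL13RA2 (−0.94) and IL1RL1 (−0.63) were lower, 2 of 11, of which IL13RA2 lost its call without the same arrays (adjusted p up to 0.16) and IL1RL1 kept it.

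Redox, glycolytic and proliferation genes had 1 to 3 calls a list, to be read against the 5.2% of all genes called higher and the 2.9% called lower. The NRF2-controlled genes AKR1C1 (log2 difference −0.72) and TXN, the thioredoxin gene (−0.66), were lower, 2 of 13. The glycolytic gene PGK1 (0.69) and the collagen hydroxylase gene P4HA1 (0.64) were higher beside ENO1, 3 of 16 glycolysis and hypoxia genes with 0 lower. LDHA had a difference of 0.11 (adjusted p = 0.78). Of 19 cell cycle genes, AURKA (0.35) was higher and CCNA2 (−0.37) lower. DKK1, a Wnt antagonist gene studied in bone metastasis, was higher (0.44), 1 of 18 bone genes, and CD44 (0.30) was the called member of 13 progenitor markers. Of the genes called here AURKA kept its call without any 1 array but lost it when only the 2 lines were fitted (adjusted p = 0.053), and each of the others lost it without at least 1 array (adjusted p up to 0.27). Limma called 0 of 10 sterol synthesis, 0 of 15 ATF4 and unfolded protein response and 0 of 7 androgen receptor program genes, with 1 of each at an unadjusted p under 0.05. Among the 8 fibroblast and stromal markers PDPN was lower (−0.60) and lost its call without either PC3-ML array or Clone 3 replicate 2 (adjusted p up to 0.12), and the 8 intensities summed to 234 to 247 in Clone 3 and 261 to 277 in PC3-ML. FEZ1 was higher and BEX1 lower among 12 neuronal and neuroendocrine genes, with NEFL, a neurofilament gene, at 0.55 (adjusted p = 0.068).

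**Figure D3:**
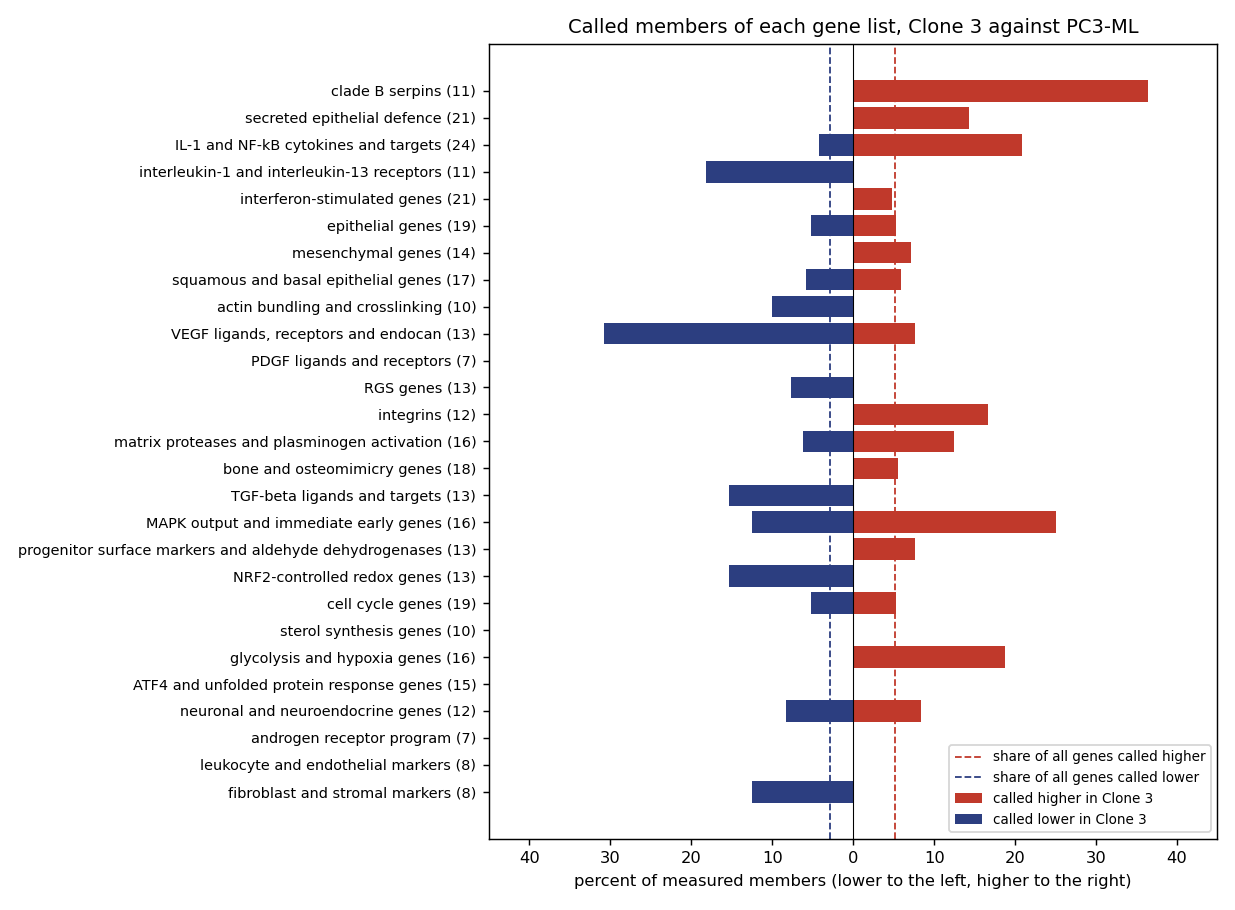
Bars give the percent of measured members of each gene list, with that number in brackets, that limma called higher in Clone 3 than in PC3-ML (red, to the right) and lower (blue, to the left); dashed lines mark the 5.2% and 2.9% of all genes. Clade B serpins (4 of 11 higher) and vascular growth factor genes (4 of 13 lower) reach farthest, and several bars stand for 1 gene.

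The genes were then placed on chromosomes with RefSeq names and order (GRCh38.p14), over the 10590 genes with a mean log2 intensity of at least 5, of which 8.77% were called higher and 4.57% lower. That mean was taken over the arrays of all lines, Clone 3 included, so a gene's level in Clone 3 helps decide whether it passes. SERPINB3, called higher on chromosome 18, passes through its Clone 3 values, since it read 21.15 to 32.85 in the other lines. How many other genes pass in this way was not counted. Chromosomes 18 and 13, singled out after their values were seen, had the highest and the lowest median difference. On chromosome 18 the median log2 difference of 168 genes was 0.23, against 0.01 for all genes, with 49 called higher (29.2%) and 2 lower. Without the limit on intensity, and with small RNA genes left out, the median of 258 genes was 0.04, with 50 higher and 3 lower. On chromosome 13 the median of 176 genes was −0.15, with 2 called higher and 27 lower (15.3%), and without the limit that of 311 genes was −0.06, with 2 higher and 28 lower. The medians are thus several times smaller when the dim genes are counted, while the numbers called are nearly the same. The plot of medians by chromosome shows both bars, beside chromosome 21, where Clone 3 had a median of 0.04 over PC3-ML and Clone 1 one of −0.31 (0.00 and −0.11 without the limit). Between the clones 64 of 126 genes of chromosome 21 were called higher in Clone 3 and 0 lower. Of all 10590 genes 7.68% were called higher and 9.29% lower in Clone 3 than in Clone 1. Chromosome X (52 higher and 15 lower of 334) and chromosome 12 (79 and 24 of 549) leaned up and chromosome 5 (32 and 53 of 473) leaned down.

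**Figure D4:**
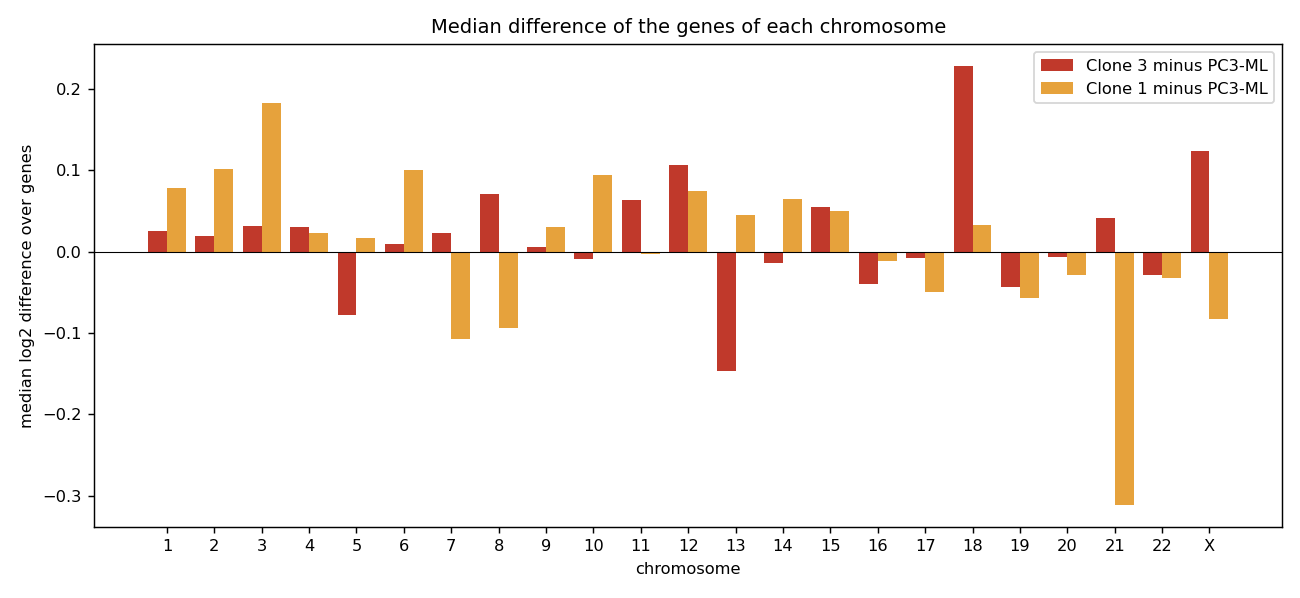
Bars give the median log2 difference over the genes of each chromosome with a mean log2 intensity of at least 5, for Clone 3 minus PC3-ML (red) and Clone 1 minus PC3-ML (orange), which share the PC3-ML arrays. Clone 3 is highest on chromosome 18 (0.23) and lowest on chromosome 13 (−0.15); Clone 1 is lowest on chromosome 21 (−0.31).

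Both shifts ran along most of the chromosome. Each chromosome was cut into runs of 15 or 16 neighbouring genes. On chromosome 18, 11 of 11 runs had a median above 0, and on chromosome 13, 11 of 11 had one below 0. Both chromosomes were picked on these same differences, so the side on which their runs lie is in part given. Elsewhere 34 of 42 runs of chromosome 11, 21 of 26 of chromosome 8 and 13 of 25 of chromosome 4 lay above 0. On chromosome 19, 38 of 49 lay below 0. On chromosome 18 the first 3 runs, USP14 to MIR320C1, had medians of 0.04 to 0.20 in Clone 3 and of 0.23 to 0.32 in Clone 1, each minus PC3-ML. In the 8 runs from MIB1 to ADNP2 the medians were 0.17 to 0.44 in Clone 3 and −0.17 to 0.10 in Clone 1. SERPINB3, SERPINB4, SERPINB5 and SERPINB8 and CABLES1 lie in this stretch, while EPB41L3, which fell in Clone 3, lies in the first run. Chromosome 13, which carries LCP1 and CCNA1, had its lowest median, −0.40, in the run from KLF5 to TGDS, and −0.05 and −0.03 in the last 2 runs.

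**Figure D5:**
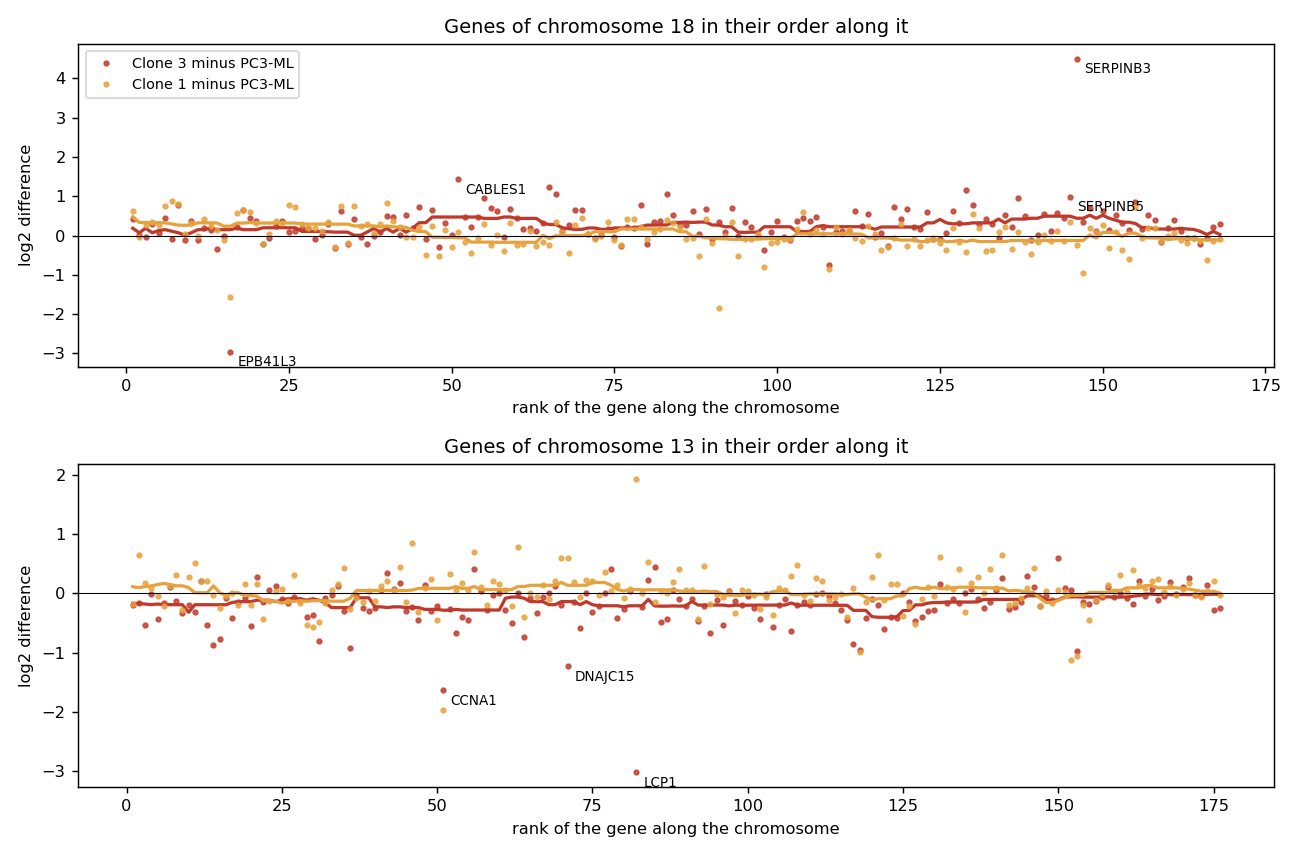
Each point is a gene of chromosome 18 (top) or 13 (bottom) with a mean log2 intensity of at least 5, in order along the chromosome, with its log2 difference in Clone 3 minus PC3-ML (red) or Clone 1 minus PC3-ML (orange); lines are medians over 15 neighbouring genes. The red line lies above 0 along chromosome 18 and below it along most of chromosome 13, and SERPINB3 and LCP1 stand far beyond it. The limit on intensity uses the arrays of all lines, and SERPINB3 passes it through its Clone 3 values.

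Leaving out a few leading genes can hardly move a median over this many genes, so the next values are description only. Without its SERPIN genes chromosome 18 had a median of 0.22 with 46 genes called higher and 2 lower, and without LCP1 chromosome 13 had −0.15 with 26 lower and 2 higher. Measured as each array's median deviation from the mean of the 5 PC3 lines, chromosome 18 stood at 0.17 and 0.17 in the 2 Clone 3 arrays and between −0.09 and −0.00 in the 8 other PC3 arrays. Chromosome 13 stood at −0.07 and −0.10 in Clone 3, against 0.03 and 0.08 in PC3-ML, and PC3-N(PDGFRα) replicate 2 was also low at −0.08. Compared with Clone 1, chromosome 18 had 51 genes higher and 4 lower in Clone 3, and chromosome 13 had 3 higher and 42 lower. That is 30.4% of chromosome 18 higher and 23.9% of chromosome 13 lower, against 7.68% higher and 9.29% lower of all 10590 genes. The counts of called genes depended on single arrays. On chromosome 18 the number called higher was 17 without PC3-ML replicate 1 and 19 without Clone 3 replicate 1. On chromosome 13 the number called lower was 13 without PC3-ML replicate 1 or Clone 3 replicate 2 and 16 without PC3-ML replicate 2 or Clone 3 replicate 1. Over these same 168 and 176 genes the medians lay within 0.20 to 0.27 and −0.16 to −0.11 under the alternatives of the fit, and the limit on intensity, which moved them more, gave 0.04 and −0.06 when it was dropped. DNA copy number was not measured.

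Small RNA genes made up a part of the largest falls. Of 415 such genes 27 were called lower and 3 higher, where 2.9% of all genes were called lower and 5.2% higher. Small RNA genes were 17 of the 54 genes at least 2-fold lower (0.294% of all genes). Small nucleolar and Cajal body RNA genes, which guide the modification of ribosomal and spliceosomal RNA, were 21 of these 27. Against Clone 1, 8 small RNA genes were lower and 2 higher in Clone 3, while Clone 1 had 36 lower and 5 higher than PC3-ML. Of all genes 5.85% were lower and 4.63% higher in Clone 3 than in Clone 1. In Clone 1 against PC3-ML 4.77% of all genes were lower and 9.01% higher.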

How the data were processed

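Total RNA of 7 cell lines, 2 arrays each, was measured on 1-colour arrays. The authors deposited a linear intensity for each of 28829 probe sets, made with RMA per the submitters' processing notes, with a version not given in the sources used here. RMA as a method subtracts background, quantile-normalises arrays and summarises probes. Arrays carry no read depth, and their number limits the precision.

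Log2 values were computed from the deposited intensities. The 19291 probe sets with a single symbol gave 18372 genes. For the 682 genes with several probe sets, 1 was used and the mean was an alternative. Probe sets with several symbols (1735) or none (7803) were left out. Symbols were looked up in the RefSeq table of GRCh38.p14, where 19260 probe sets matched.

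Limma 3.58.1 (R 4.3.3) fitted all 14 arrays with 1 coefficient per line (7 residual degrees of freedom), with Benjamini-Hochberg adjustment over all genes and a threshold of 0.05. Tables used Python 3.11.15, pandas 2.3.3, numpy 2.4.6 and Biopython 1.88. The fit was tested on simulated data.

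The genes and 28 lists (413 genes, 377 measured) were chosen with earlier results of these data known. Genes named were the 15 largest rises and 15 largest falls among called genes with no overlap, up to 8 called and 3 brightest uncalled members per list, the 5 largest rises and 5 largest falls against Clone 1, and 11 genes known from earlier results. Small RNAs and genes with only a locus name were counted and not named. Other named genes were chosen after their values were seen.

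Alternatives were a second quantile normalisation, centring each array, a filter on dim genes (mean log2 of 5), the mean of probe sets, an intensity trend in the variance, fitting only the 2 lines or only PC3 arrays, a replicate block, leaving out each array, and a 2-fold minimum. Leaving small RNA genes out of the counts was added after seeing the data.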

Additional observations from a re-analysis of the deposited data

Results flagged for a closer look

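In 62 genes limma called Clone 3 and Clone 1 in opposite directions against PC3-ML and also called the difference between the clones, 31 with Clone 3 higher and 31 with Clone 3 lower. The comparisons share arrays, so the direct test between the clones is the one given here. Among the genes named above, Clone 3 was higher than Clone 1 by a log2 difference of 3.55 for FEZ1, 2.88 for ZNF667-AS1, 2.73 for TNFAIP6, 2.11 for PLK2, 2.05 for FER1L6 and 1.97 for RBP4. It was lower, with log2 differences of −4.96 for LCP1, −2.96 for IL13RA2, −2.70 for PODXL, −2.60 for ARHGDIB, −1.32 for PDPN and −0.91 for IL1RL1. Because the genes were selected for opposite directions, the parental line necessarily lies between its single-cell progeny in each of these 12.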

How the results depend on the processing

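No named gene that was called reversed its direction under an alternative. Changes of sign in genes called in neither fit were not counted as reversals. For Clone 3 against PC3-ML the 1489 calls became 944 when only the 2 lines were fitted and 115 with a 2-fold minimum, and lay between 431 (without PC3-ML replicate 1) and 1232 when 1 array was left out. Without Clone 3 replicate 1 there were 574 calls and without Clone 3 replicate 2 there were 739. Leaving out an array leaves 1 in that line, which is assumed to vary like the other lines. For Clone 3 against Clone 1 the 1925 calls became 175 with a 2-fold minimum and 1018 to 1123 without 1 array. For Clone 1 against PC3-ML the 2533 calls became 230 with a 2-fold minimum and 1213 to 1981 without 1 array. The other alternatives left these counts within 1.5 times, and those of list members moved by more in 67 of 336 cases. The median difference of all genes lay between −0.02 and 0.03 under each alternative that kept all genes.

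Replicate numbers did not pair the arrays, since deviations of same-numbered arrays correlated over 0.1 in 5 of 21 pairs of lines (−0.20 to 0.24). With the replicate block limma called 1442 genes for Clone 3 against PC3-ML, 1878 for Clone 3 against Clone 1 and 2493 for Clone 1 against PC3-ML.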

Other observations

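Gene families that no list above covered were picked and counted after their values were seen. Their counts in Clone 3 against PC3-ML are to be read against 5.2% of all genes higher and 2.9% lower. In Clone 1 against PC3-ML those shares of all genes were 9.01% and 4.77%. Of 78 genes of the oxidative phosphorylation complexes, which make ATP in mitochondria, limma called 18 lower and 7 higher in Clone 3 than in PC3-ML. ATP5MK, a small subunit of ATP synthase, read 955 and 857 in Clone 3, against 1999 and 1885 in PC3-ML (log2 difference −1.10). COX7A2 of cytochrome oxidase differed by −1.06 and NDUFB6 of complex I by −1.05, while NDUFV1 of the same complex (1.04) and SDHD of succinate dehydrogenase (1.00) were higher. Of 72 mitochondrial ribosomal protein genes 10 were lower and 1 higher, with MRPL50 at 115 and 114 in Clone 3, against 234 and 211 in PC3-ML. In Clone 1 against PC3-ML, which shares the PC3-ML arrays, 16 of the oxidative phosphorylation genes were lower and 13 higher, and 11 of the mitochondrial ribosomal genes were lower and 7 higher.

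Proteasome subunit genes, which encode the main protein-degrading complex, had 6 of 36 called higher and 1 lower, with PSMC3 at 584 and 557 in Clone 3, against 264 and 337 in PC3-ML (log2 difference 0.94). Of 16 aminoacyl-tRNA synthetase genes 3 were higher, with NARS1 at 1708 and 1680 in Clone 3, against 1082 and 1125 in PC3-ML, and 1 was lower. Among 13 BEX and TCEAL genes, neighbours on the X chromosome, 5 were lower and 0 higher: BEX5 (−1.71), BEX1 (−1.62), BEX4 (−0.65), TCEAL1 (−0.40) and BEX3 (−0.29). Of 27 HOX genes 3 of the B cluster were lower, HOXB9 (−1.55), HOXB6 (−0.79) and HOXB5 (−0.57), and 0 higher. Of 57 core histone genes 8 were lower and 2 higher in Clone 3 than in PC3-ML. The cytosolic ribosomal genes RPS9 and FAU were higher in Clone 3 than in PC3-ML by 1.12 and 1.14, while 7 of 66 such genes were called higher and 6 lower. In Clone 1 against PC3-ML, with the same PC3-ML arrays, 10 proteasome and 6 synthetase genes were higher, 7 BEX and TCEAL, 4 HOX and 12 histone genes were lower, and FAU and RPS9 were higher by 1.67 and 1.16. Of all genes 9.01% were called higher and 4.77% lower in that comparison. What the arrays of Clone 3 and Clone 1 share against those of PC3-ML, cloning included, cannot be told apart.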
